A study of Homo sapiens with 4 samples.

Results

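The WNT ligands, their Frizzled (FZD) receptors and a small set of core pathway genes were examined for H3K9la, histone H3 lactylated at lysine 9. Members were RefSeq protein-coding genes of GRCh38 whose symbol is WNT or FZD followed by a number, with or without a letter, together with LRP5, LRP6, PORCN, AXIN1, AXIN2, APC, CTNNB1, TCF7L1, TCF7L2 and LEF1. They came to 39 of 19974 protein-coding genes of the autosomes and chromosome X, made up of 19 WNT genes, 10 FZD genes and 10 others. The mark was mapped by ChIP-seq in KYSE30 cells, a long-established line of human oesophageal squamous carcinoma, in 2 arms that the labels name sg3 and V2. Each arm had 1 anti-H3K9la library and 1 input library, and 1 deposited peak list, without replicates. The labels do not spell out either name, so the arms are compared as named, and the series title presents SIRT3 as an eraser of the mark. Each line of a peak list is a called region and is named a record here. A record was given to a gene when it overlapped the gene or lay within 10 kb of it.

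Wnt proteins are secreted, lipid-bearing growth factors that bind a Frizzled receptor together with the co-receptor LRP5 or LRP6. In the absence of a ligand, a cytoplasmic complex built on AXIN and APC marks the co-activator beta-catenin, the product of CTNNB1, for destruction. When a ligand engages the receptors, beta-catenin accumulates and works in the nucleus with DNA-binding factors of the TCF/LEF family, and AXIN2 and LEF1 are among the genes that the pathway itself commonly induces. Other Wnt ligands act through routes without beta-catenin, such as planar cell polarity. In squamous epithelia the pathway is known for its part in the upkeep of basal and stem cells.

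The share of WNT and FZD genes with a record was below that of all protein-coding genes in both lists, and the difference was not tested. The sg3 list had a record at 19 of the 39 members, which is 48.7% (exact Clopper-Pearson 95% CI 32.4 to 65.2%), where 63.1% of all protein-coding genes had one. The V2 list had a record at 15 members, which is 38.5% (95% CI 23.4 to 55.4%), where 46.0% of all genes had one. Among the WNT and FZD genes alone, 12 of 29 had a record in sg3, which is 41.4% (95% CI 23.5 to 61.1%), and 8 of 29 in V2, which is 27.6% (95% CI 12.7 to 47.2%). Of the 10 other members, 7 had a record in sg3 and 7 in V2. The intervals cover counting error only. For all 39 members they contain the share over all genes in both lists, and for the 29 WNT and FZD genes they contain it in V2 and end below it in sg3. That last interval ends at 61.1%, close to the 63.1% of all genes, and is not a test of the difference. With 1 library per arm no test between arms was possible and none was made, so each difference between the lists compares 2 libraries and has no replicate check.

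Records in both lists were found at 14 members, which is 35.9%, against 45.3% of all genes. These were WNT2B, WNT3A, WNT7A, WNT9A, WNT10A, WNT10B, FZD3, FZD7, LRP5, LRP6, AXIN1, CTNNB1, TCF7L1 and TCF7L2. The sg3 list alone had records at 5 members, WNT6, WNT7B, FZD1, FZD6 and APC, which is 12.8% of the members, against 17.8% of all genes. The V2 list alone had a record at 1 member, PORCN, where 0.691% of all genes had a record in V2 alone. The remaining 19 members had no record in either list, which is 48.7%, where 36.2% of all genes had none. They were 11 WNT genes (WNT1, WNT2, WNT3, WNT4, WNT5A, WNT5B, WNT8A, WNT8B, WNT9B, WNT11 and WNT16), 6 FZD genes (FZD2, FZD4, FZD5, FZD8, FZD9 and FZD10), AXIN2 and LEF1.

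**Figure D1:**
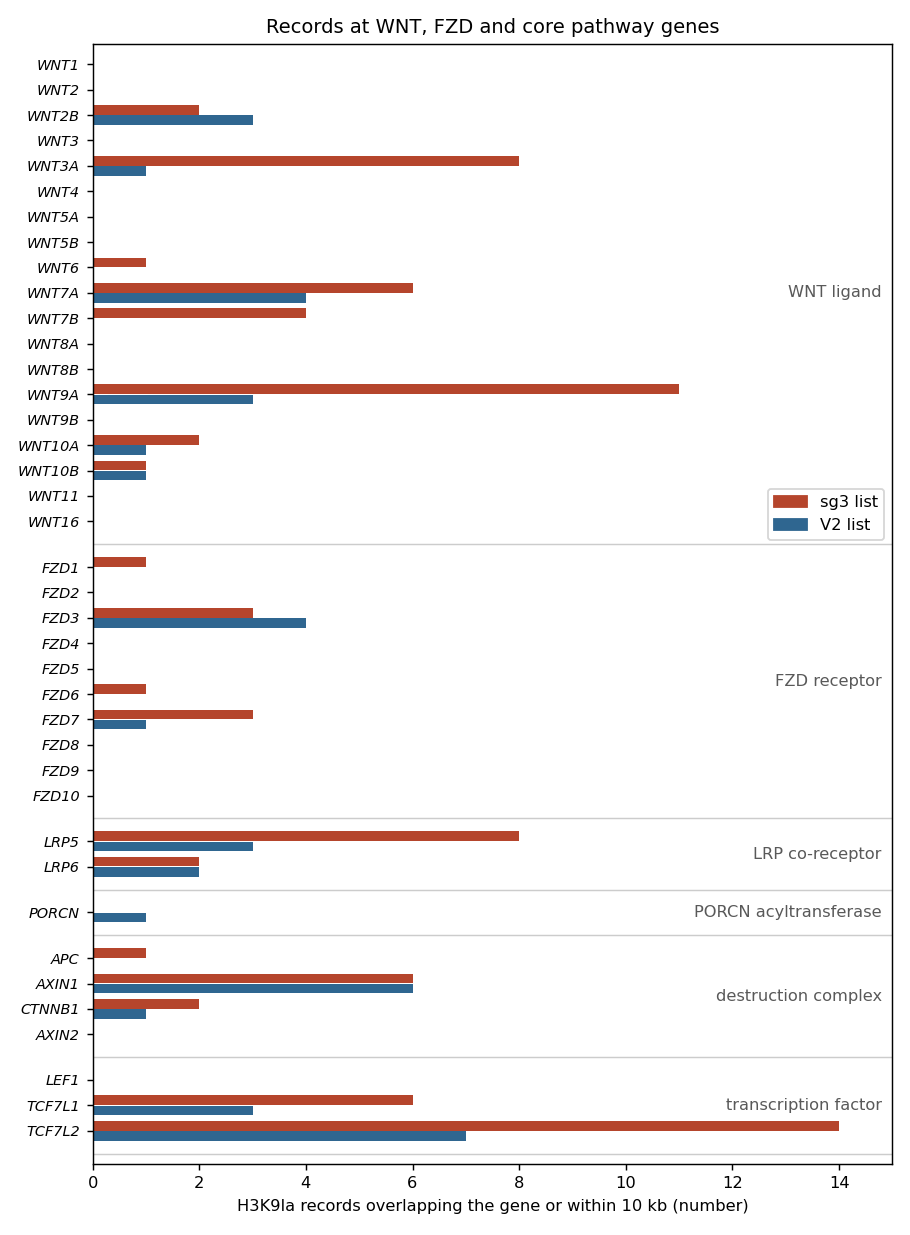
Number of H3K9la records at each of the 39 members (horizontal axis), with the sg3 list as the upper bar and the V2 list as the lower bar of each gene, grouped by role. TCF7L2 had the most records, with 14 in sg3 and 7 in V2, followed in sg3 by WNT9A with 11, and 19 genes had no bar in either list.

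Gene length was recorded beside these counts, because a longer gene has a wider search window. The members had a median length of 30157 bases, against 24170.5 bases over all genes. FZD genes are short, with a median of 5740.5 bases, and WNT genes had a median of 29277 bases. Of the 10 WNT and FZD genes of up to 10 kb, 3 had a record in sg3 and 2 in V2, against 49.9% of all genes of that length in sg3 and 35.3% in V2. Of the 11 between 30 and 100 kb, 6 had a record in sg3 and 4 in V2, against 71.1% of all genes in sg3 and 52.0% in V2. Of the 8 between these lengths, 3 had a record in sg3 and 2 in V2, against 64.4% of all genes in sg3 and 45.0% in V2. The share of WNT and FZD genes was below that of all genes in each of the 3 classes, with few genes in each.

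The lists differ in length, which bears on every count. The sg3 list held 56875 records and the V2 list 40332, and read depth is not stated in them. Among all records within 10 kb of a protein-coding gene the ratio was 1.43 in number and 1.79 in covered bases. Fold enrichment, the authors' ratio of ChIP signal to background at the summit of a record, and -log10 q, the authors' measure of how firmly a record was called, rank records within 1 list and are not compared between lists. Of 10 squamous marker genes such as KRT14, TP63 and DSP, 10 had a record in sg3 and 9 in V2, and KRT5 was the one in sg3 alone. Markers of other cell types also had records: 4 of 5 blood genes in sg3 and 2 in V2, and, in each list, 3 of 5 fibroblast and endothelium genes (COL1A1, COL1A2 and CDH5), 2 of 5 neuron genes (SYT1 and RBFOX3) and 1 of 5 liver genes (HNF4A). Records within 10 kb were thus not confined to squamous genes, and over all genes 63.1% had one in sg3 and 46.0% in V2. The liver genes ALB, APOA1, APOB and TTR had none in either list. SPI1, PDGFRB, PECAM1, SNAP25, NEUROD1 and STMN2 of the other groups had none either.

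The members held 81 records in sg3 and 41 in V2, a ratio of 1.98. The sg3 records covered 71634 bases at a median fold enrichment of 4.01, and the V2 records covered 28015 bases at a median of 4.31. The whole lists had medians of 4.97 in sg3 and 5.22 in V2, so records at the members were weaker than the middle of their own list in both. The difference in number depended on how a stretch of signal was split into records. With records closer than 1 kb merged, an alternative chosen after seeing the data, the members held 44 regions in sg3 and 31 in V2, a ratio of 1.42, against 1.30 over all genes. In lists of equal length the ratio was 1.34, against 1.04 over all genes. TCF7L2, WNT9A and WNT3A, picked for their high number of sg3 records, together held 33 of the sg3 records and 11 of the V2 records. LRP5 had as many sg3 records as WNT3A. Without the 3 genes the ratio was 1.60, but a choice by sg3 count in itself tends to lower it. Without TCF7L2 alone, the gene with the most records in both lists, the ratio was 1.97.

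Most V2 records at the members had an sg3 partner, while most sg3 records did not have a V2 partner. Of the 41 V2 records 35 overlapped an sg3 record by at least 1 base, which is 85.4% (95% CI 70.8 to 94.4%), where 87.4% of V2 records near any protein-coding gene did so. Of the 81 sg3 records 31 overlapped a V2 record, which is 38.3% (95% CI 27.7 to 49.7%), where 52.2% of sg3 records near any gene did so. Most of the unmatched sg3 records were weak ones. Among sg3 records with a -log10 q under 10, 4 of 31 had a V2 partner, against 25.2% near any gene, and between 10 and 20 it was 11 of 31, against 46.3%. At 20 or more, 16 of 19 had one, which is 84.2%, against 84.5%. The 3 strong sg3 records without a V2 partner lay in LRP5 (-log10 q 27.9), at FZD6 (23.6) and at TCF7L2 (22.4). In V2 each of the 8 member records at 20 or more had an sg3 partner, and the strongest record without one lay in TCF7L1 (12.1).

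Few ligand and receptor genes had a record at the transcription start. The start was taken from the RefSeq promoter table for 29 members. For the other 10 (WNT7B, WNT10B, WNT11, FZD2, FZD3, FZD6, FZD7, FZD10, LRP6 and AXIN2) either end of the gene was searched. A record within 1 kb was found at 13 members in sg3, which is 33.3% (95% CI 19.1 to 50.2%), where 47.2% of all genes had one. In V2 it was found at 8 members, which is 20.5% (95% CI 9.30 to 36.5%), where 28.7% of all genes had one. Of the WNT and FZD genes 7 of 29 had such a record in sg3 and 3 of 29 in V2, and of the 10 other members 6 had one in sg3 and 5 in V2. The 7 were WNT2B, WNT7B, WNT9A, FZD1, FZD3, FZD6 and FZD7 in sg3, and the 3 in V2 were WNT9A, FZD3 and FZD7. A start record in sg3 alone was seen at 6 members (WNT2B, WNT7B, FZD1, FZD6, APC and TCF7L2), against 18.9% of all genes, and in V2 alone at 1, PORCN, against 0.441% of all genes. At WNT2B and TCF7L2 a V2 record lay just beyond 1 kb, at 1380 and 1241 bases from the start. The V2 record at WNT2B overlapped the sg3 start record. With a start window of 2.5 kb, 14 members had a start record in sg3 and 10 in V2.

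Most genes with a start record had no record over the start base itself, and the members are too few to be set apart from all genes in this. Of the 8 members with a listed start and an sg3 record within 1 kb, WNT9A was the 1 member whose first listed start base was covered, and among all genes 38.9% of those with such a record had the base covered. In V2 it was also WNT9A, as 1 of 5 members, where 24.9% of all genes with such a record had the base covered. Over all 15813 genes with a listed start, coverage was highest 311 bases into the gene in sg3, where 37.8% of genes had a record, and 322 bases into the gene in V2, where 19.8% did. It was 18.3% at the start base in sg3 and 6.98% in V2. Just upstream it was lower still, with 12.4% at position -100 in sg3 and 4.49% at position -120 in V2. Farther upstream it formed a second, lower maximum, at position -531 in sg3 (19.3%) and -607 in V2 (8.71%). CTNNB1, AXIN1 and TCF7L2 each had sg3 records on both sides of the start with a gap over it, from position -309 to 136 in CTNNB1, from -510 to 423 in AXIN1 and from -261 to 304 in TCF7L2.

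**Figure D2:**
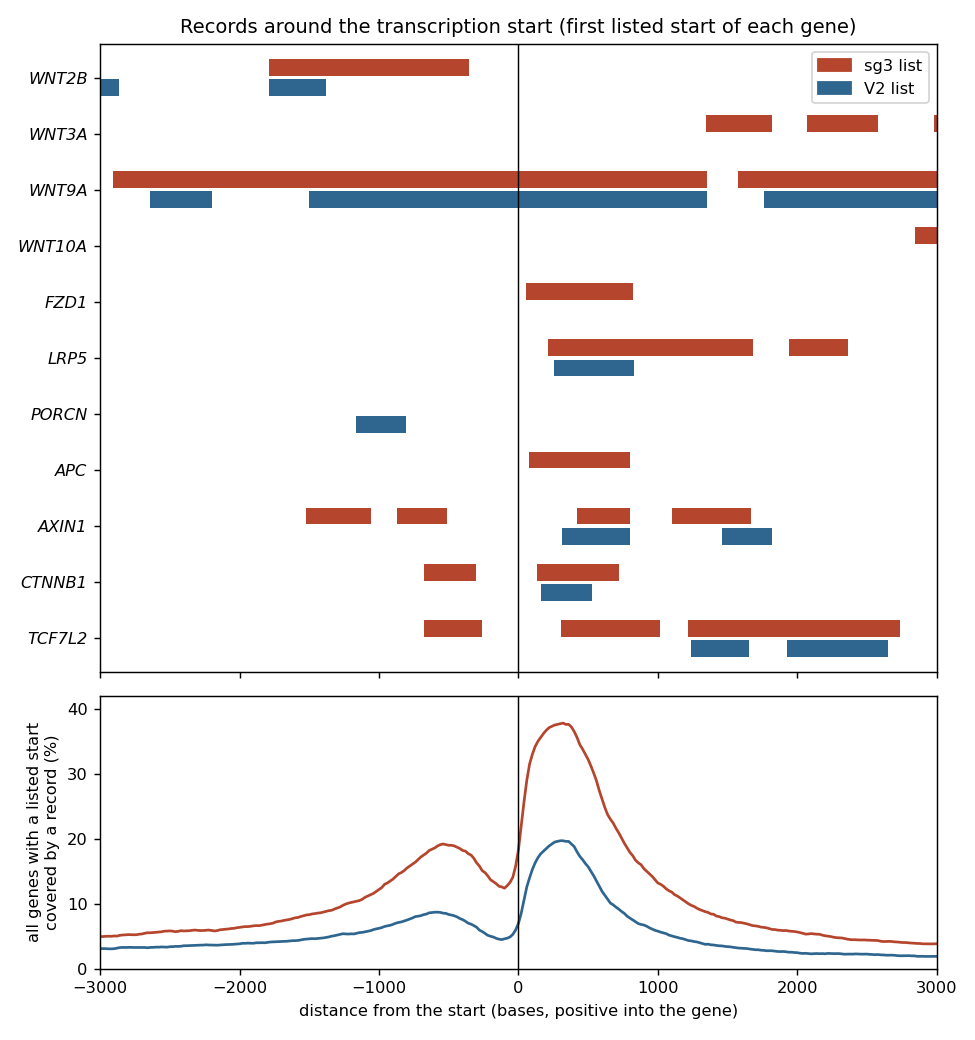
Records within 3 kb of the first listed start of the 11 members with any record there (upper panel, sg3 above V2 for each gene), and the percent of all 15813 genes with a listed start whose bases are covered by a record (lower panel), by distance from the start in bases. Of these 11 members WNT9A alone had its first listed start base covered, while CTNNB1, AXIN1 and TCF7L2 showed a gap there. Members without a listed start, such as LRP6, are not shown.

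Of the 21 WNT and FZD genes with a promoter entry, 13 had promoters rich in CpG, with 30 or more, and these were mostly without start records. The RefSeq promoter, 250 bases before to 50 bases from the start on, held a median of 31.0 CpG in the 29 members with an entry, against 22 over all genes. Over all genes a record at the start went with CpG: 65.0% of promoters with 30 or more CpG had one in sg3 and 42.1% in V2, against 18.9% of promoters with fewer than 10 CpG in sg3 and 11.7% in V2. Of the 13 WNT and FZD promoters with 30 or more CpG, WNT9A alone had a start record, in both lists, which is 7.69% (95% CI 0.195 to 36.0%). Those without one in either list were WNT1, WNT2, WNT3A, WNT4, WNT6, WNT7A, WNT9B, WNT10A, FZD4, FZD5, FZD8 and FZD9. The other 5 members with 30 or more CpG were LRP5, AXIN1, CTNNB1, PORCN and TCF7L1, and 3 of them had a start record in sg3 and 4 in V2. These shares rest on few genes and were set beside all genes as a description. They leave out the WNT and FZD genes without a promoter entry. Of those, WNT7B, FZD3, FZD6 and FZD7 had an sg3 record within 1 kb of a gene end, and FZD3 and FZD7 also a V2 record. WNT10B, WNT11, FZD2 and FZD10 had none there in either list.

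**Figure D3:**
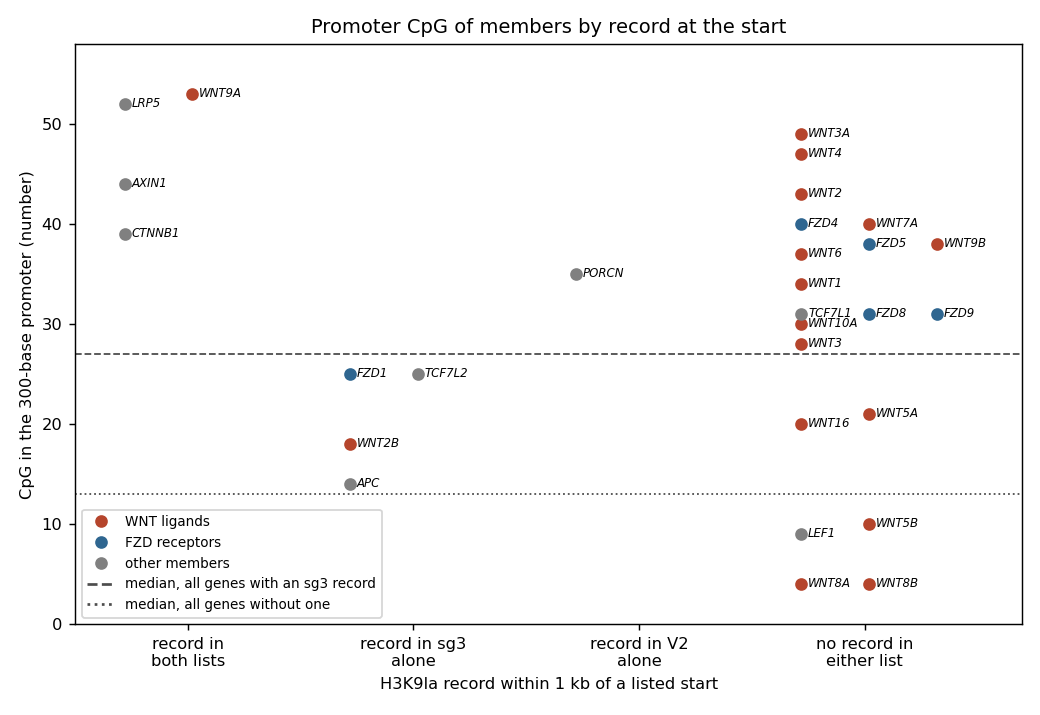
Number of CpG in the 300-base promoter of the 29 members with an entry (vertical axis), by whether a record lay within 1 kb of a listed start; each point is 1 gene, and the lines give the medians of all genes with an sg3 start record (27.0) and without one (13.0). Most of the WNT and FZD genes shown stand in the column without a record and above the upper line. WNT7B, FZD3, FZD6 and FZD7, with an sg3 record within 1 kb of a gene end, have no entry and are not shown.

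The promoters of 4 members show this contrast. WNT9A and WNT3A are neighbouring ligand genes with nearly the same number of CpG, 53 and 49, and of these WNT9A had a record over its start in both lists and WNT3A had none within 1 kb. CTNNB1 (39 CpG) and APC (14 CpG) had records just inside the start. Sequences are those of RefSeq on GRCh38.p14, 5′ to 3′ along the gene, with CpG in capitals: WNT9A at chr1:227947883-227948182 on the minus strand, WNT3A at chr1:228006748-228007047 on the plus strand, CTNNB1 at chr3:41199255-41199554 on the plus strand and APC at chr5:112707248-112707547 on the plus strand, the first of its 2 listed starts.
WNT9A: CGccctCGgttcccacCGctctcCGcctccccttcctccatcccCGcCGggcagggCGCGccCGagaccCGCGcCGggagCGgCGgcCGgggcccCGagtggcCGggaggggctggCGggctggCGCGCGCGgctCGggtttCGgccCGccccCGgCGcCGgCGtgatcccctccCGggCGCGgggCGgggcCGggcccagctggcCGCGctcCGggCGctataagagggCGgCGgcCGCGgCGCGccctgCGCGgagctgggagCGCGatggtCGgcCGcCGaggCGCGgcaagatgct
WNT3A: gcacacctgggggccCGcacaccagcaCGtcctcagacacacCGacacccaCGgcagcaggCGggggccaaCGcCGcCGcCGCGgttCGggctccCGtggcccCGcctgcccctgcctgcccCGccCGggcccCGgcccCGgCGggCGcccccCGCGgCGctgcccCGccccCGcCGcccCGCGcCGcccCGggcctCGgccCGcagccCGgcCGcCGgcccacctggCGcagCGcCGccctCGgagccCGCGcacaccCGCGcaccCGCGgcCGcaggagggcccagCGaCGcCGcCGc
CTNNB1: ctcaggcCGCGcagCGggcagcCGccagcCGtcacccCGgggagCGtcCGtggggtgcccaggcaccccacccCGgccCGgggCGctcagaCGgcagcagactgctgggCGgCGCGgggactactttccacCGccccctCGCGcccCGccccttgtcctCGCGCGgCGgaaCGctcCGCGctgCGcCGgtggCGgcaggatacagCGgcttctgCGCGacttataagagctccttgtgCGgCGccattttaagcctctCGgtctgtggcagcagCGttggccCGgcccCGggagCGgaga
APC: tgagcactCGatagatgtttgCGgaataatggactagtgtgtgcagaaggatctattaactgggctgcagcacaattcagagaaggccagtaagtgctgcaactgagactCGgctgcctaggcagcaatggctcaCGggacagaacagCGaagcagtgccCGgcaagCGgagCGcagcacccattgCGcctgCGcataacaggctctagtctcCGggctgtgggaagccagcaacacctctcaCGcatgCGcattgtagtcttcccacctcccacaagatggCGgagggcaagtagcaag

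Motifs were looked for in the promoters at the first listed start on both strands. CTTTGA, the core letters of TCF/LEF sites, was in 0 of 29 member promoters (exact upper limit 11.9%), against 11% of all 15813 promoters. The promoter at the second listed start of PORCN holds CTTTGA and is outside this count. G and C made up a median of 73.7% of the member promoters, against 62.7% over all promoters, and the part of this in the motif counts was not tested. TGACTCA, the letters of the AP-1 site, was in 0 of 29, against 3.62% of all promoters. CTTTGA was less frequent in all promoters with an sg3 start record, at 8.39%, than in those without one, at 13.5%.

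Among the WNT ligands, WNT9A had the firmest start record of all members. WNT9A takes part in joint formation and blood stem cell development. Its sg3 record ran from 227946580 to 227950841 on chromosome 1, 4262 bases wide, and was enriched 7.9-fold at a -log10 q of 70.4, which ranked 2204 of 56875 in its list. The V2 list had a record from 227946582 to 227949431 (5.73-fold, -log10 q 45.3) and a further one from 227950133 to 227950573 inside the span of the sg3 record. A second shared record lay 1572 bases into the gene in sg3, with a fold enrichment of 7.39, and 1764 bases into it in V2, with 3.53. The other 9 sg3 records at WNT9A had no V2 partner and fold enrichments from 2.31 to 4.76.

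WNT3A, the best studied activator of beta-catenin signalling, starts 59066 bases from the WNT9A start, and the genes point away from each other. WNT3A had a chain of 7 sg3 records from 228008342 to 228014319, beginning 1344 bases into the gene, with fold enrichments from 2.71 to 8.31. The V2 list had 1 record there, from 228012803 to 228013183 (fold enrichment 4.06), and it overlapped the strongest of the 7. Merging within 1 kb made the chain 1 region. Between the WNT9A and WNT3A starts, no record of either list lay more than 10 kb from both starts.

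**Figure D4:**
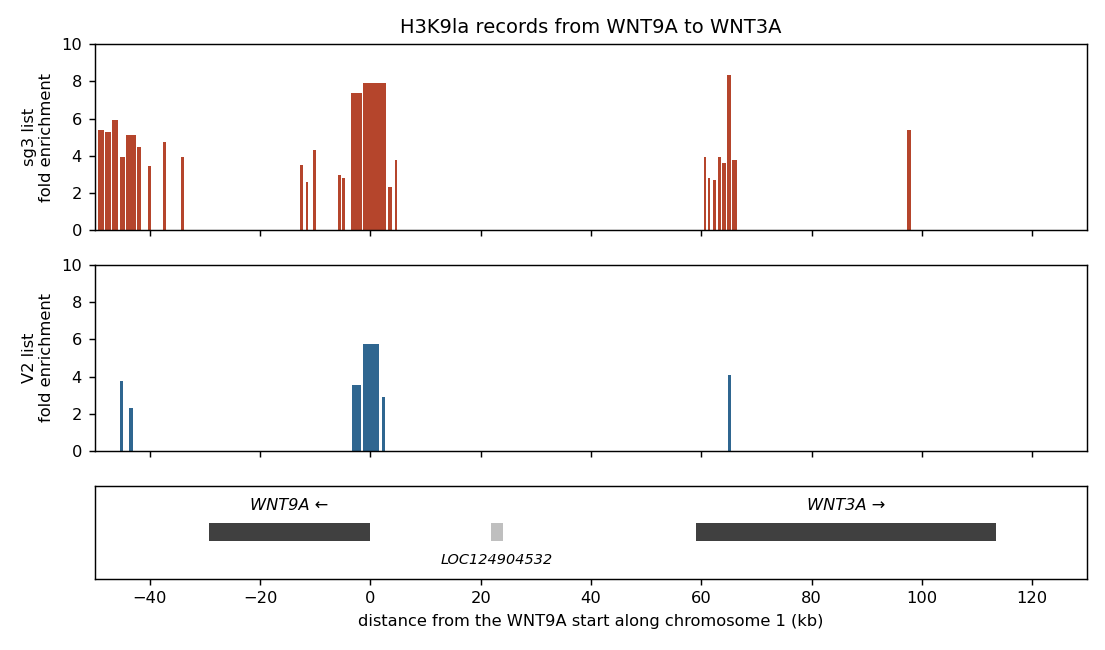
Fold enrichment of records (vertical axes, sg3 above, V2 below) from WNT9A to WNT3A by distance in kb from the WNT9A start along chromosome 1, with gene bodies at the bottom and arrows for their direction; records narrower than 0.5 kb are drawn at 0.5 kb. The lists share the records at the WNT9A start and 1 record inside WNT3A, and the rest of the WNT3A chain is in sg3 alone.

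WNT7A, a ligand of limb and reproductive tract patterning, held the record with the highest fold enrichment among all members in sg3. A cluster of 6 sg3 records lay inside the gene from 13849800 to 13859214 on chromosome 3, between 20857 and 30271 bases from the start, with fold enrichments from 4.48 to 15.5. The V2 list had 4 records in the same stretch, from 13852043 to 13858669, with 5.25 to 8.7. Each of the 4 V2 records overlapped an sg3 record, and 3 of the 6 sg3 records overlapped V2. No record of either list lay at the WNT7A start, whose promoter held 40 CpG.

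WNT2B, WNT10A and WNT10B had records in both lists near the gene and not over its body or not at its start. At WNT2B, a ligand of the beta-catenin route, the strongest sg3 record ended 358 bases before the first listed start (fold enrichment 8.62, -log10 q 38.9) and the V2 record there ended 1380 bases before it (5.5, 11.8). The other records at WNT2B had their summits nearest to another gene, CTTNBP2NL. Among them were the strongest V2 record (7.11, -log10 q 17.9) and its sg3 partner (4, 10.0). WNT10A, mutated in disorders of teeth, hair and skin, had a shared record past its higher-coordinate end, from 218894504 to 218897831 on chromosome 2 in sg3 (4.84) and from 218896336 to 218897798 in V2 (3.41). The sg3 list had a second, weak record inside WNT10A (2.72, -log10 q 8.40). At WNT10B the single record of each list lay 7899 bases from the gene in sg3 and 7955 in V2, with its summit in ARF3, a gene of membrane traffic.

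WNT7B and WNT6 had records in the sg3 list alone. WNT7B, a ligand of epithelial growth, had 4 sg3 records with fold enrichments of 4.01, 6.67, 4.7 and 3.7 and -log10 q between 10.5 and 15.7. The first lay past its lower-coordinate end, 2 lay inside the gene and the last ran from 45977381 to 45978599 on chromosome 22, just past its higher-coordinate end. The nearest V2 record was 22.7 kb from the gene. WNT6 was counted through the weak record inside WNT10A, 9462 bases past its end, and has no record of its own. It is the member closest to the edge of the 10 kb window on the inside. On the outside the closest were PORCN in sg3, at 14.9 kb, and FZD4, at 19.1 kb.

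The 11 WNT genes and 6 FZD genes without a record differed widely in how far the nearest one was. Over all 19 members without a record the nearest sg3 record lay at a median of 47.2 kb and the nearest V2 record at 85.4 kb. WNT5A, the leading ligand of the routes without beta-catenin, was the farthest, with 575 kb to the nearest sg3 record and 826 kb to the nearest V2 record. WNT2 was 321 kb away in both lists, and WNT3 was 171 kb away in sg3 and 249.9 kb in V2. Its neighbour WNT9B was 182 kb away in both. AXIN2 was 163 kb away in sg3 and 165 kb in V2. FZD10 had its nearest sg3 record at 22.7 kb and its nearest V2 record at 706 kb.

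Of the FZD receptors, 4 of 10 had an sg3 record and 2 a V2 record. At FZD7, a receptor linked to stem cell renewal, a shared record lay just outside the lower-coordinate end, on chromosome 2 from 202032835 to 202033545 in sg3 (6.64-fold, -log10 q 35.9) and from 202032911 to 202033490 in V2 (4.95, 21.0). The sg3 list had 2 weaker records inside the gene (2.47 and 3.13). FZD3, a planar polarity receptor on chromosome 8, had a weak shared record just inside its lower-coordinate end (2.96 in sg3, 2.24 in V2). Its other records, 2 in sg3 and 3 in V2, lay next to FBXO16, which is the nearest gene to them.

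FZD1 and FZD6 each had a single record close to a gene end in sg3 and none in V2. The FZD1 record ran from 91264488 to 91265256 on chromosome 7, starting 55 bases into the gene (4.13-fold enriched, -log10 q 19.6). The nearest V2 record was 284 kb from FZD1. The FZD6 record, on chromosome 8 from 103298925 to 103299428, was enriched 4.56-fold (-log10 q 23.6), and the nearest V2 record was 81.9 kb from this planar polarity receptor gene.

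Both co-receptor genes had records in both lists. LRP5 had 8 sg3 and 3 V2 records. Its first listed start, at 68312591, lies inside the RefSeq gene interval, which begins at 68298412, and distances are given from the listed start. Its start record ran along chromosome 11 from 68312806 to 68314270 in sg3 (3.44-fold) and from 68312847 to 68313416 in V2 (3.06). A group of 3 sg3 records, 29515 to 41347 bases from that start, had no V2 partner. In a further group, from 67190 to 71267 bases, 2 of 3 sg3 records overlapped the 2 V2 records there. LRP6 had 2 records in each list, all of them matched. It has no listed start, and its sg3 record from 12266284 to 12267243 covered the higher-coordinate end of the gene. The record inside LRP6, from 12215293 to 12215992 on chromosome 12 in sg3 (6.31) and from 12215398 to 12216241 in V2 (11.8), had the highest fold enrichment of all V2 records at members.

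PORCN, the enzyme that attaches the lipid which Wnt ligands need for secretion, was the single member in V2 alone. Its V2 record ran from 48507824 to 48508182 on chromosome X, ending 810 bases before the first listed start (4.97-fold enriched, -log10 q 5.11). It ranked 36715 of 40332 in its list, and the nearest sg3 record lay 14940 bases from the gene. The record was lost at a -log10 q of at least 10.

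Of the destruction complex and its target, AXIN1 and CTNNB1 had records in both lists, APC in sg3 alone and AXIN2 in neither. AXIN1, the scaffold of the complex, had 6 records in each list, in a group at the start and a group 22565 to 29498 bases into the gene. The widest member record lay there, an sg3 record of 5224 bases on chromosome 16 from 323974 to 329197 (5.34-fold), which overlapped 2 V2 records, the stronger from 326186 to 327312 (7.21). CTNNB1 had its main record just inside the start, from 41199641 to 41200225 on chromosome 3 in sg3 (7.72, -log10 q 34.2) and from 41199667 to 41200030 in V2 (3.64, -log10 q 9.70). The sg3 list had a second, weak one upstream (2.9). APC, the tumour suppressor scaffold, had an sg3 record from 112707574 to 112708294 on chromosome 5, 76 bases inside the first of its 2 listed starts (6.27, -log10 q 18.5), and the nearest V2 record was 75.2 kb away. No record of either list lay at the second listed start of APC. AXIN2, a negative-feedback scaffold and widely used readout of the pathway, had no record.

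The transcription factor genes differed from each other. TCF7L2 had 14 sg3 and 7 V2 records in 3 groups, at the start, 118180 to 125376 bases into the gene and 142238 to 157559 bases into it. In the first group the strongest sg3 record spanned 112951462 to 112952980 on chromosome 10 (6.95-fold, -log10 q 56.2) and overlapped 2 V2 records, and the sg3 records nearest to the start had no V2 partner. In the middle group 4 of 5 sg3 and 4 of 4 V2 records were matched, and in the last 1 of 6 sg3 and 1 of 1 V2 records were. TCF7L1, often a repressor of pathway targets, had no record near its start. Its 6 sg3 records and 3 V2 records lay 81854 or more bases into the gene, and 1 of each overlapped the other list. The V2 record from 85291462 to 85292193 on chromosome 2 (6.2) fell between 2 sg3 records. LEF1, a factor whose gene is itself a common target of the pathway, had no record, with the nearest at 34.3 kb in sg3 and 153 kb in V2.

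**Figure D5:**
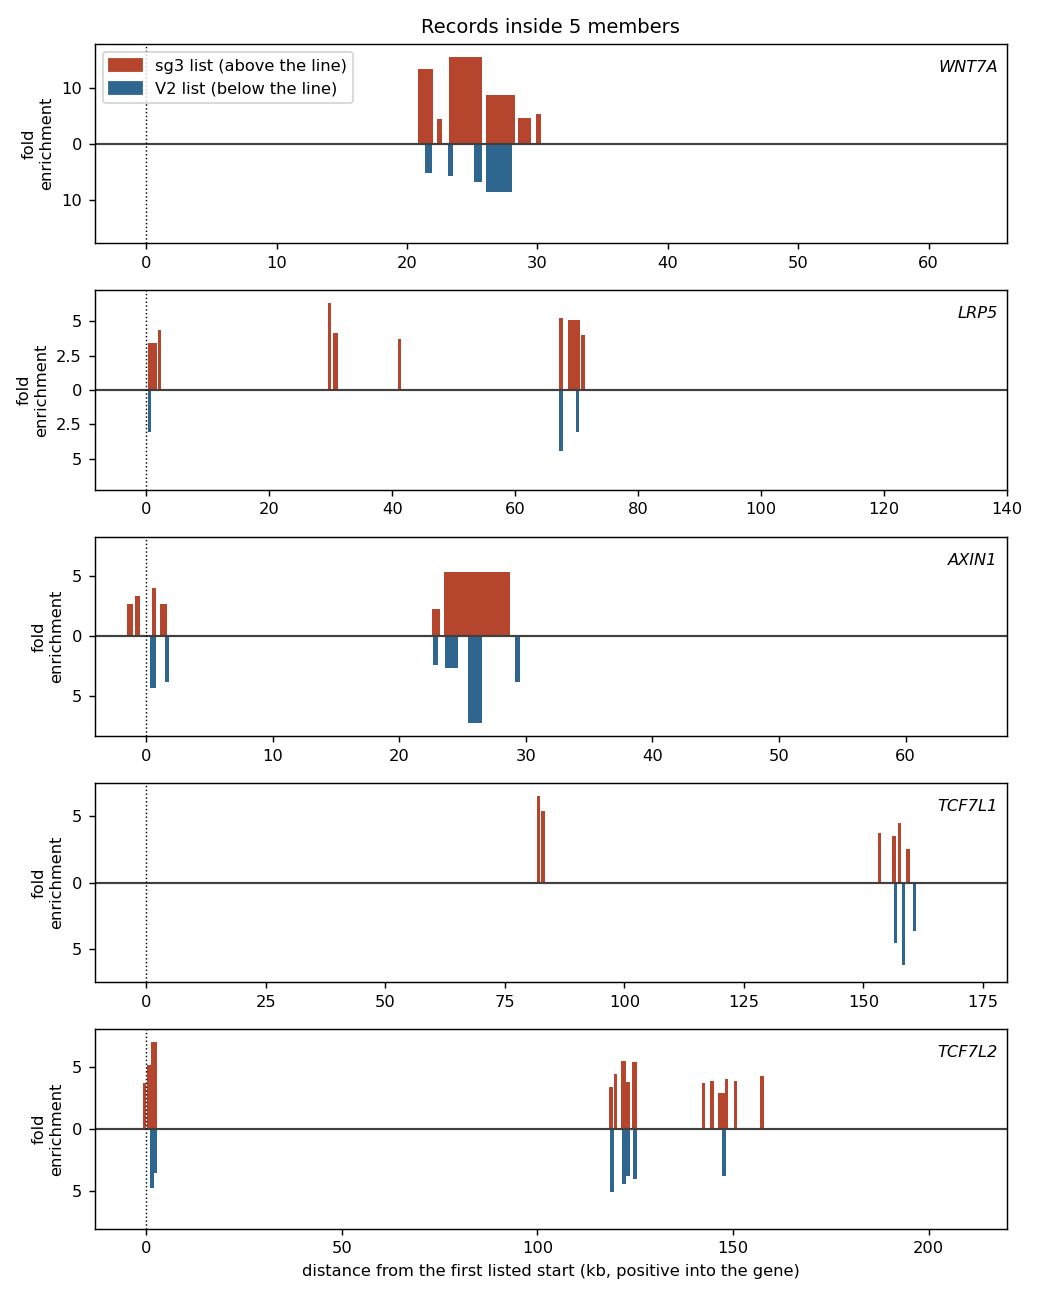
Fold enrichment of records in WNT7A, LRP5, AXIN1, TCF7L1 and TCF7L2 (sg3 above the line, V2 below it, each on its own list's scale) by distance in kb from the first listed start; narrow records are drawn at a minimum width. Records fall in groups inside the genes, and TCF7L1 and WNT7A have none at the start.

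Other genes of the pathway, 65 in a list of 9 subgroups, had records about as often as all genes. The sg3 list marked 41, which is 63.1% (95% CI 50.2 to 74.7%), and the V2 list 31, which is 47.7% (95% CI 35.1 to 60.5%). The shares over all genes were 63.1% in sg3 and 46.0% in V2. Values in parentheses are the fold enrichment of each gene's record with the highest -log10 q in a list, and they belong to overlapping records of the lists unless different sites are named. Of the cytoplasmic signalling genes 15 of 16 had a record in sg3 (93.8%, 95% CI 69.8 to 99.8%) and 13 in V2 (81.2%, 95% CI 54.4 to 96.0%). In this subgroup GSK3A (fold enrichment 4.66) and AMER1 (4.1) had records in sg3 alone, and the summit of that record lay nearest to another gene in each case. Several genes of the subgroup with records in both lists also had their record with the highest -log10 q nearest to another gene. By -log10 q the highest sg3 records in this subgroup were at the casein kinase genes CSNK1D (-log10 q 113.0 in sg3 and 44.5 in V2) and CSNK1G1 (101.5 in sg3 and 79.8 in V2, at different sites). Of the nuclear factors 8 of 10 had a record in sg3 (95% CI 44.4 to 97.5%) and 7 in V2 (95% CI 34.8 to 93.3%), and both intervals contain the share over all genes. BCL9, a beta-catenin adaptor, was in sg3 alone (4.51), BCL9L (16.9 in sg3, 8.5 in V2) and the co-repressor TLE4 (10.9 in sg3, 4.77 in V2) were in both, and PYGO2 had 6 records in sg3 and 2 in V2, of which the one with the highest -log10 q in each list had its summit nearest to SHC1. Of the planar polarity genes 5 of 7 were marked in sg3 and 4 in V2, with CELSR1, an atypical cadherin, holding 44 records in sg3 and 38 in V2, CELSR2 and CELSR3 in both lists, and VANGL2 in sg3 alone (4.44).

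Of 13 inhibitor genes 4 had a record in sg3 (30.8%, 95% CI 9.09 to 61.4%), against 63.1% of all genes, and 1 in V2 (7.69%, 95% CI 0.195 to 36.0%), against 46.0% of all genes. DKK1, an LRP5/6 antagonist, had one at its start in both lists (5.61 in sg3, 5.16 in V2), while DKK4 and KREMEN2 were in sg3 alone through records nearest to VDAC3 and PAQR4, and KREMEN1, which encodes a membrane receptor for DKK proteins, had a weak sg3 record (2.62). None of the SFRP genes, FRZB, WIF1, SOST, DKK2 or DKK3 had a record. Of 8 agonists and their receptors, LGR4 (10.4 in sg3, 14.7 in V2) and LGR6 (8.11 in sg3, 3.29 in V2, at different sites) were in both and RSPO1 in sg3 alone (4.65), and LGR5 had none. RNF43, a ligase that removes Frizzled receptors, had a record in each list at different sites, and its partner ZNRF3 had records in sg3 alone (6.16). Of the alternative receptors ROR1 (7.33) and ROR2 (3.41) were in sg3 alone, RYK in V2 alone (6.61, -log10 q 9.66) and PTK7 in both, with 11 records in sg3 and 8 in V2, of which the one with the highest -log10 q in each list lay nearest to SRF. WLS and NOTUM, which release and inactivate Wnt ligands, had no record, and of SP5, TNFRSF19 and CD44, often used as targets, CD44 alone had records (7.21 in sg3, 4.37 in V2).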

How the data were processed

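H3K9la ChIP-seq and input DNA of KYSE30 cells were sequenced in the arms sg3 and V2, with 4 samples in all. Per the submitters' processing notes, the tools included Bowtie2 2.5.1 and MACS2 2.2.9.1, besides Trim Galore 0.6.10, SAMtools 1.18 and FastQC 0.12.1, and the build was hg38. Not given in the sources used here are the command line, the control behind each list, the handling of reads with several alignments and the depth. The deposit places the V2 list with the input sample of that arm, and it was taken as the V2 list by its record names. IgG libraries were not analysed here.

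Fold enrichment (a ratio), -log10 p and -log10 q are the authors' deposited values per record, and the smallest -log10 q was 2.02 in sg3 and 2.01 in V2. The deposited integer score followed -log10 q in 99.98% of sg3 and 99.82% of V2 records and was not used. The summit offset was used for position.

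Genes, positions and promoters came from RefSeq tables of GRCh38.p14, the build of the lists. All 39 members and all 65 other pathway genes matched by symbol. All starts listed for a gene were searched, and the first listed is the most upstream. Overlaps were computed with Python 3.11.15, numpy 2.4.6 and pandas 2.3.3, exact intervals with scipy 1.17.1, and the interval code was tested on simulated records. Every member is described, together with up to 4 genes of each pathway subgroup, ordered by -log10 q, with those in 1 list alone ahead of those in both. The members and lists were chosen with earlier results of these data known. Alternatives changed the window, the thresholds, the list length, the assignment, the overlap and the merging.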

Additional observations from a re-analysis of the deposited data

How the results depend on the processing

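The number of members with a record ranged from 16 to 24 in sg3 and from 10 to 20 in V2 over all alternatives, and both stayed within 1.5 times the reported 19 and 15. With a -log10 q of at least 10 the members held 50 sg3 and 20 V2 records, V2 start records fell to 4 members, no member was in V2 alone (0), and 95% of V2 records overlapped sg3. With a fold enrichment of at least 4 there were 43 sg3 and 23 V2 records and 4 members with a V2 start record. The window of 25 kb gave 65 V2 records, and gene bodies alone left 0 members in V2 alone. In lists of equal length 50.9% of sg3 records overlapped V2. Merging within 1 kb, chosen after seeing the data, gave 44 sg3 regions, of which 52.3% overlapped V2. The cause of these shifts was not tested, beyond the fewer, wider or merged records that each setting leaves. Of 124 comparisons of summary values with an alternative, 111 stayed near the reported value and 13 moved. Near was a wide class here. It took in 121 sg3 records in the 25 kb window, against 81 as reported, and 10 V2 members with gene bodies alone, against 15. Record counts of single genes were less stable, and 94 of 360 comparisons moved. In sg3 the count at WNT9A was 11 as reported, 20 in a 25 kb window, 5 after merging and 4 at a -log10 q of at least 10, where TCF7L2 had 7 in place of 14. WNT3A had 2 in place of 8 after merging. No paired analysis was possible because each arm has 1 library and no comparison was tested. The lists carry no read depth, so the part of sequencing depth in the longer sg3 list was not tested, and the absence of a record is not the absence of the mark.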
